A study of Mus musculus with 2 samples.

Results

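The Src family kinases Lck and Fyn, the Syk family kinases Zap70 and Syk, the inhibitory kinase gene Csk with its membrane anchor Pag1, and the adaptor and phosphatase genes Sla, Sla2, Ubash3a and Ubash3b were followed in single T cells from mouse spleen. These 10 genes were taken by name from the 22686 genes listed in the deposited count tables, as kinases that the phosphatase CD45 acts on and genes that restrain them, and all 10 were listed. The 2 libraries, 1 per genotype, came from LatY136F mice and from LatY136F CD45-KO mice, both 8 to 9 weeks old, and the cells had been sorted for CD3 and CD5. Both genotypes carry the LatY136F mutation of the adaptor LAT, so neither library shows wild-type T cells. The number of mice behind a library, the map from cells to sample tags and the part of Ptprc that was targeted are not given in the sources used here. With 1 library for each genotype, the 2 cannot be told apart and no test between samples was possible. All intervals are 95% intervals for counting error alone.

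CD45, encoded by Ptprc, is a membrane phosphatase that removes the inhibitory phosphate which Csk places on the tail of Lck and Fyn, and it can also remove the activating phosphate. Pag1 (also called Cbp) is a membrane adaptor that, when phosphorylated, recruits Csk to Src family kinases. Active Lck phosphorylates the T cell receptor chains and the Zap70 bound to them, and Zap70 in turn phosphorylates LAT. Sla and Sla2 (SLAP and SLAP2) are adaptors that promote loss of receptor complexes and of Src and Syk family signalling through Cbl ligases, and Ubash3a and Ubash3b (Sts-2 and Sts-1) are proteins that restrain signalling through Zap70 and Syk.

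After cells with fewer than 200 genes or more than 25% mitochondrial counts were removed, 13747 LatY136F and 12834 CD45-KO cells remained. At least 1 UMI (unique molecular identifier, a counted molecule) of a T cell receptor or CD3 gene was found in 99.99% and 99.80% of them. The T cell gate set aside 8 and 28 B-lineage-like cells, 19 and 71 myeloid-like cells, and 2 and 15 other cells without such a UMI. It held 13718 and 12720 cells with 35141236 and 28624736 UMIs, a median of 2154 and 1987.5 UMIs per cell. The median mitochondrial share of these cells was 8.59% and 9.42%, and 223 cell indices occurred in both libraries. Levels are in CPM, a gene's UMIs summed over cells and scaled to the summed UMIs of all genes in the same cells. A log2 ratio between libraries has the CD45-KO level as numerator, and a log2 fold sets a group of cells against the other T cells of its library. CPM are not divided by gene length, so the level of a gene was compared with its own level in other cells. Where UMIs of a gene are given per 100 UMIs of another, that proportion is compared between cells only and does not say which gene has more transcripts.

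The transcripts of the 2 Src family kinases differed little between the libraries. Lck (ENSMUSG00000000409.14; GRCm38 chromosome 4, 129548344 to 129573641, minus strand, protein coding), the main Src family kinase of the T cell receptor, stood at 683 CPM in LatY136F and 613 CPM in CD45-KO T cells, a log2 ratio of -0.16 (-0.18 to -0.13). Fyn (ENSMUSG00000019843.14; chromosome 10, 39368855 to 39565381, plus strand), its relative in T cells, stood at 375 and 399.9 CPM (0.09, 0.06 to 0.13). The Lck ratio was below 0 in 9 of 9 T cell states with at least 50 cells in both libraries (interval below 0 in 4), and the Fyn ratio was above 0 in 6 and below 0 in 3. Over all T cells, 100 Lck UMIs were accompanied by 54.8 Fyn UMIs (53.7 to 56.0) in LatY136F and 65.2 (63.7 to 66.8) in CD45-KO cells. Over 10 other cell filters and scalings the Lck ratio ran from -0.20 to -0.10 and that of Fyn from 0.03 to 0.14.

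The promoter windows of Lck, Fyn and Zap70 are shown because all 3 kinases had their highest level in the same cell state, described further on. Each is the 250 bases before a RefSeq transcription start on GRCm38.p6, written 5′ to 3′ on the gene's strand, and 8 of the 10 members have an entry in that table (not Pag1 and Sla). Lck has an upstream and a downstream start, and of the 3 Zap70 starts the first is shown. Capitals mark exact matches, on either strand, to AGGAAG (reverse complement CTTCCT), an ETS-type motif, or TGTGGT (reverse complement ACCACA), a RUNX-type motif, which do not overlap in these windows.
Lck, upstream start, chr4:129573642-129573891, minus strand: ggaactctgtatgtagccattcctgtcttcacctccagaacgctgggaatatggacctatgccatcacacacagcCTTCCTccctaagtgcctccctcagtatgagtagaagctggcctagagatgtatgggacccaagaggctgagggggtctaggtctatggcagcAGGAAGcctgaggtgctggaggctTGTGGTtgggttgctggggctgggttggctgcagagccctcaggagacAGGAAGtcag
Lck, downstream start, chr4:129558373-129558622, minus strand: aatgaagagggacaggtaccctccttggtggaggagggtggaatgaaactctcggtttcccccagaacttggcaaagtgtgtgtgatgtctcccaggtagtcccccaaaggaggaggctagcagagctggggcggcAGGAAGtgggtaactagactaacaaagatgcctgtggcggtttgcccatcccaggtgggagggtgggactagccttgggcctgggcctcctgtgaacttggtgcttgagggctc
Zap70, first start, chr1:36761548-36761797, plus strand: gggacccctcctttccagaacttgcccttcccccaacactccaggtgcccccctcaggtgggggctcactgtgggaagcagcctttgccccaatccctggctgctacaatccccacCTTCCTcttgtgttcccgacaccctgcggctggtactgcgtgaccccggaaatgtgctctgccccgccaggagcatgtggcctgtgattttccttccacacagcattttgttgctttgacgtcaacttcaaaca
Fyn, chr10:39369549-39369798, plus strand: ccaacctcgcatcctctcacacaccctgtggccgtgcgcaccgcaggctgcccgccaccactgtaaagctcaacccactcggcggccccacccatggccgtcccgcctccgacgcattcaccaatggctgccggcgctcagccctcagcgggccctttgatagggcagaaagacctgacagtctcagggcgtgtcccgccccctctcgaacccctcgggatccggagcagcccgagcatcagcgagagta
The upstream Lck window held 3 matches to AGGAAG and 1 to TGTGGT, the downstream one 1 and 0, the Zap70 window 1 and 0, and the Fyn window 0 of both. The other 2 Zap70 windows held 2 and 1, and 0 of both. Over 32851 promoter windows of the same length, 29.5% held AGGAAG and 14.05% held TGTGGT, so the presence of a match is common and describes the letters of these windows only.

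Csk was lower in the CD45-KO library and Pag1 was not. Csk (ENSMUSG00000032312.7; chromosome 9, 57626646 to 57653631, minus strand), the kinase that holds Lck and Fyn inactive, stood at 218 CPM in LatY136F and 170.0 CPM in CD45-KO T cells, a log2 ratio of -0.36 (-0.41 to -0.31) or 0.779-fold. Its ratio was below 0 in 9 of these 9 states, with the interval below 0 in 7, from -0.69 in Trdc-positive to -0.09 in interferon-response cells. Pag1 (ENSMUSG00000027508.15; chromosome 3, 9687479 to 9833679, minus strand), the anchor of Csk, stood at 126 and 137 CPM (0.12, 0.05 to 0.18), and it was above 0 in 4 and below 0 in 5 of the 9 states. Over all T cells, the 2 parts of the Csk arm therefore stood in another proportion in each library. There were 57.9 Pag1 UMIs per 100 Csk UMIs (55.8 to 60.1) in LatY136F and 80.5 (77.1 to 84.0) in CD45-KO cells. The order was reversed, with overlapping intervals, in cycling (49.8 and 44.5), interferon-response (68.6 and 58.9) and Tfh-like cells (12.8 and 11.2). In the rest of the 9 states the CD45-KO value was the higher. The Csk ratio ran from -0.40 to -0.32 over the other filters and scalings and that of Pag1 from 0.06 to 0.16.

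Of the Syk family, Zap70 was read in T cells of both libraries and Syk was close to absent. Zap70 (ENSMUSG00000026117.10; chromosome 1, 36761798 to 36782818, plus strand), the T cell member of the family, stood at 209 CPM in LatY136F and 183 CPM in CD45-KO T cells (-0.19, -0.24 to -0.13; -0.25 to -0.11 over the other settings). Its ratio was below 0 in 8 of 9 states, with the interval below 0 in 3. Syk (ENSMUSG00000021457.14; chromosome 13, 52583173 to 52648792, plus strand), the member known from B and myeloid cells, had 12 UMIs in each library's T cells, 0.341 CPM (0.176 to 0.596) and 0.419 CPM (0.217 to 0.732), which is under the minimum of 50 UMIs set for a ratio. These UMIs lay in 10 of 13718 and 11 of 12720 T cells.

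Syk followed the few cells of other lineages in the sort. Its level was 128 CPM in myeloid-like cells of both libraries (11 and 53 UMIs), and 80.1 and 85.6 CPM in B-lineage-like cells (4 and 17 UMIs). Zap70 was lower in these classes than in T cells, with 46.6 and 31.4 CPM in myeloid-like cells (4 and 13 UMIs) and 1 and 0 UMIs in B-lineage-like cells. Of the T cells with a Syk UMI, 1 of 10 in the LatY136F and 10 of 11 in the CD45-KO library also held a UMI of a B-lineage or myeloid marker, against 2.32% and 2.56% of all T cells. The median depth of these cells was 2763.5 and 5431 UMIs. Without cells that hold such a marker, 10 Syk UMIs were left in the LatY136F and 1 in the CD45-KO library, so the Syk counts give no measure of a difference between T cells of the 2 genotypes.

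**Figure D1:**
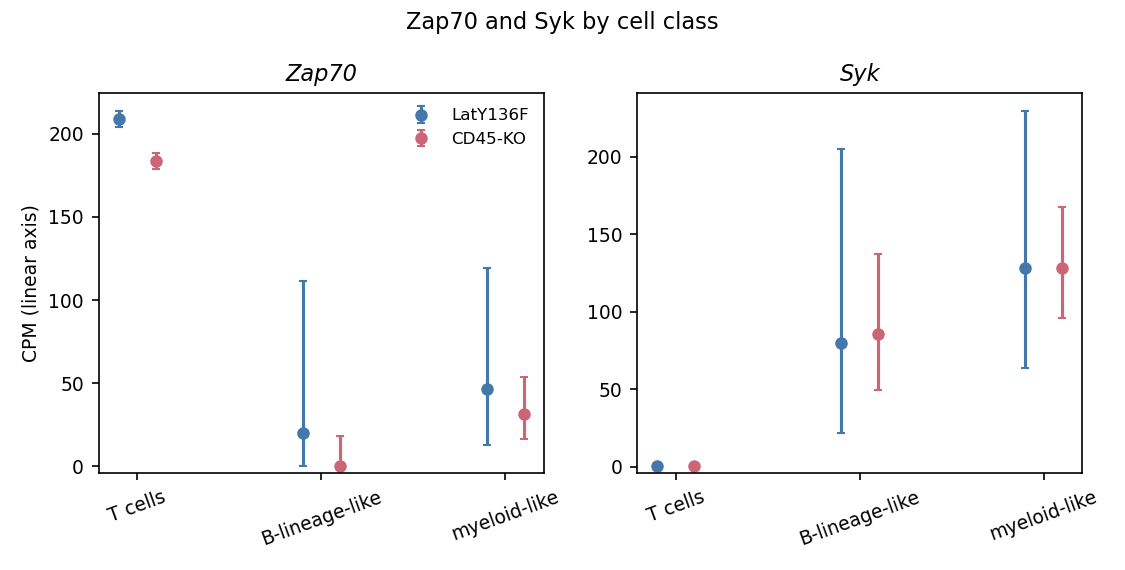
Level of Zap70 (left) and Syk (right) in CPM, on linear axes, in T cells, B-lineage-like and myeloid-like cells of the LatY136F (blue) and CD45-KO (red) library. Points are 1 library each and bars are 95% Poisson intervals; Syk is at 0.341 and 0.419 CPM in T cells and 128 CPM in myeloid-like cells of both libraries.

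Both SLAP adaptors were lower in the CD45-KO library. Sla (ENSMUSG00000022372.14; chromosome 15, 66780819 to 66831829, minus strand) stood at 327 CPM in LatY136F and 248 CPM in CD45-KO T cells, a log2 ratio of -0.40 (-0.44 to -0.36) and the lowest among the members. Sla was below 0 in 9 of 9 states, with the interval below 0 in 6. Sla lies inside Tg on the opposite strand, but Tg had 51 and 46 UMIs against 11504 and 7099 of Sla. Sla2 (ENSMUSG00000027636.11; chromosome 2, 156872457 to 156887192, minus strand) stood at 68.8 and 55.7 CPM (-0.30, -0.40 to -0.21) and was below 0 in 8 of 9 states. It overlaps Rab5if on the opposite strand (3150 and 1795 UMIs), and as no source used here says whether the counting used strand, reads of the 2 genes could be mixed. Over the other settings the Sla ratio ran from -0.42 to -0.33 and that of Sla2 from -0.38 to -0.25.

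The Sts genes were nearly level. Ubash3a (ENSMUSG00000042345.15; chromosome 17, 31207873 to 31246892, plus strand), known from lymphoid cells, stood at 48.9 and 52.5 CPM (0.10, 0.00 to 0.20; 0.02 to 0.14 over the other settings), above 0 in 5 and below 0 in 4 states. Ubash3b (ENSMUSG00000032020.15; chromosome 9, 41011098 to 41161697, minus strand), its broadly expressed relative with the more active phosphatase domain, stood at 132 and 134 CPM (0.02, -0.04 to 0.08), and its ratio was below 0 in 4 of 10 other settings.

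Counted together, 0 of the 9 members with at least 50 UMIs were 1.5-fold or more higher or lower in the CD45-KO library. Over all 11389 genes with that many UMIs, 6.12% were higher and 7.25% lower by this measure, so a count of 0 among 9 genes is near the background. The members' median log2 ratio was -0.16, with 5 of 9 below 0, against a median of 0.03 over all genes. All 9 lay inside the range that holds the central 90% of genes, -0.76 to 0.66, and 11.7% of all genes had a ratio below that of Sla and 13.3% one below that of Csk.

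**Figure D2:**
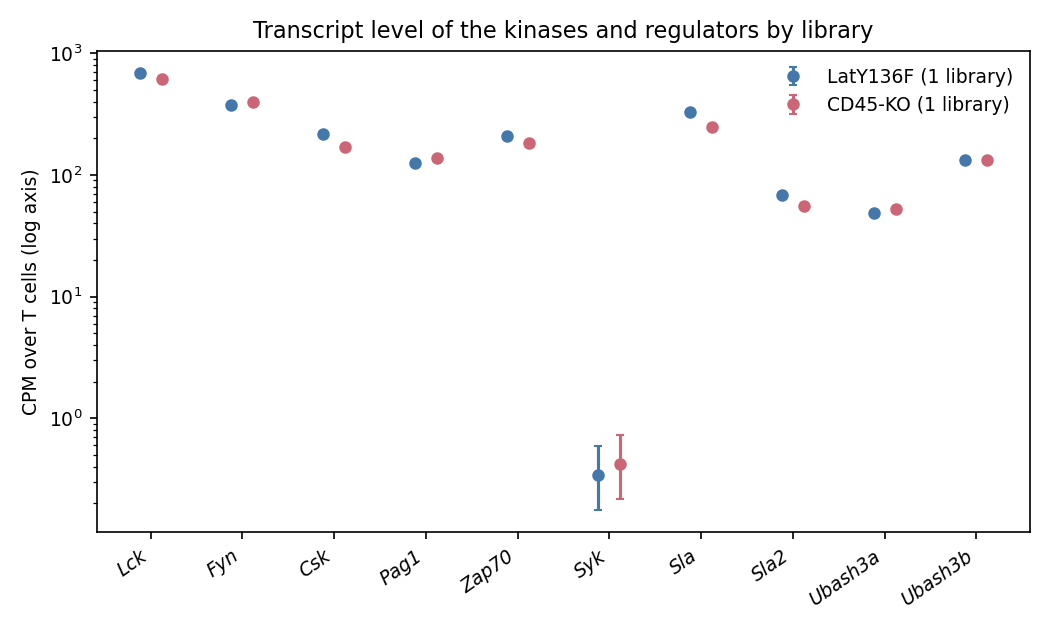
Level of each member in CPM, on a log axis, over all T cells of the LatY136F (blue) and CD45-KO (red) library, with 95% Poisson intervals that are mostly smaller than the points. Only points of the same gene can be compared; the pairs lie close together for 9 genes, and Syk lies under 1 CPM in both libraries.

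**Figure D3:**
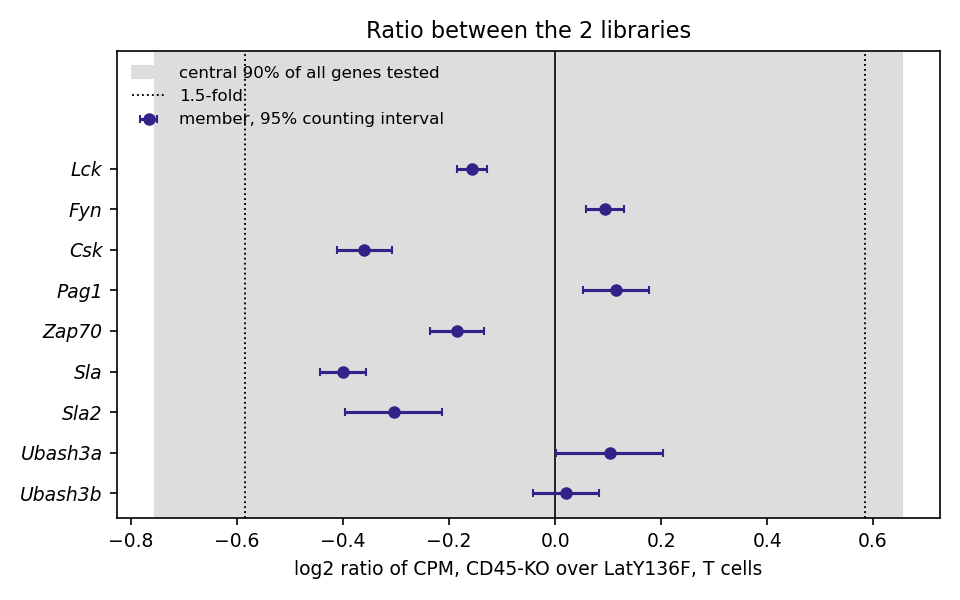
Log2 ratio of CPM, CD45-KO over LatY136F, for the 9 members with at least 50 UMIs, with 95% counting intervals. The grey band holds the central 90% of 11389 genes and dotted lines mark 1.5-fold; the members run from -0.40 for Sla to 0.12 for Pag1, inside the dotted lines.

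T cells were also split by transcripts other than the members into states, each cell going to the first gate it met: cycling, Trdc-positive, Foxp3-positive, interferon-response, Tfh-like, granzyme-positive, CD8-type, Th2-cytokine-positive, Il1rl1-positive, naive-like and remaining. The Tfh-like gate asked for at least 3 UMIs from at least 2 of the follicular helper markers Cxcr5, Il21, Sostdc1, Bcl6, Pdcd1 and Tox2, and it held 139 LatY136F and 226 CD45-KO cells. Lck, Fyn and Zap70 were all highest in these cells in both libraries, and Pag1 was lowest there. Between Tfh-like and other T cells, the kinases and the Csk anchor thus stood in opposite order, which was not a general order over the states.

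Lck stood at 1199.7 CPM in Tfh-like against 676 CPM in all other T cells of the LatY136F library, 1.78-fold (1.63 to 1.93), and at 1183 against 597 CPM in the CD45-KO library, 1.98-fold (1.85 to 2.12). Fyn stood at 787 against 369 CPM, 2.13-fold (1.93 to 2.36), and at 876 against 386 CPM, 2.27-fold (2.10 to 2.45). Zap70 had the widest gap, with 592 against 203 CPM, 2.91-fold (2.58 to 3.27), and 557 against 173 CPM, 3.22-fold (2.92 to 3.55). The next highest states are named among the 9 with at least 50 cells in both libraries. For Lck the next was Trdc-positive at 765 CPM in LatY136F and naive-like at 684 CPM in CD45-KO cells. For Zap70 it was Th2-cytokine-positive at 239 and 197 CPM. The smaller Foxp3-positive and CD8-type states were left out of this order, and some of their levels were higher. Between the libraries, the intervals of the Tfh-like ratios included 0, with -0.02 (-0.17 to 0.13) for Lck, 0.15 (-0.03 to 0.34) for Fyn and -0.09 (-0.30 to 0.13) for Zap70.

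Pag1 went the other way. It stood at 30.2 CPM in Tfh-like against 128 CPM in other T cells of the LatY136F library, a log2 fold of -2.08 (-2.92 to -1.36), and at 24.0 against 140.0 CPM in the CD45-KO library, -2.55 (-3.28 to -1.90). These low values rest on 15 and 19 UMIs. Per 100 Lck UMIs there were 2.52 (1.40 to 4.18) and 2.03 (1.22 to 3.18) Pag1 UMIs in Tfh-like cells, against 18.5 and 22.3 over all T cells. Ubash3b was also lower, 80.5 against 132 CPM (-0.72, -1.20 to -0.27) and 56.8 against 136 CPM (-1.26, -1.71 to -0.83).

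Of the other regulators, Csk, Sla and Sla2 stayed within 1.5-fold of their level in other T cells. Csk had log2 folds of 0.11 (-0.16 to 0.37) and 0.35 (0.12 to 0.57) in the LatY136F and the CD45-KO library, Sla 0.13 and 0.37, and Sla2 -0.40 and -0.52. Csk UMIs per 100 Lck UMIs were 19.6 (16.0 to 24.0) and 18.1 (15.3 to 21.4) in Tfh-like cells, against 31.9 and 27.7 over all T cells. Ubash3a was at 0.40 (-0.15 to 0.91) and 0.71 (0.34 to 1.07), past 1.5-fold in the CD45-KO library only. Past 1.5-fold, 3 of 9 members were higher and 2 lower in the LatY136F library, and 4 higher and 2 lower in the CD45-KO library. The same measure called 12.0% of 6391 genes higher and 16.6% lower in LatY136F, and 12.6% of 6440 genes higher and 14.4% lower in CD45-KO Tfh-like cells. The members' median log2 fold was 0.13 and 0.37, against -0.03 and -0.01 over all genes.

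**Figure D4:**
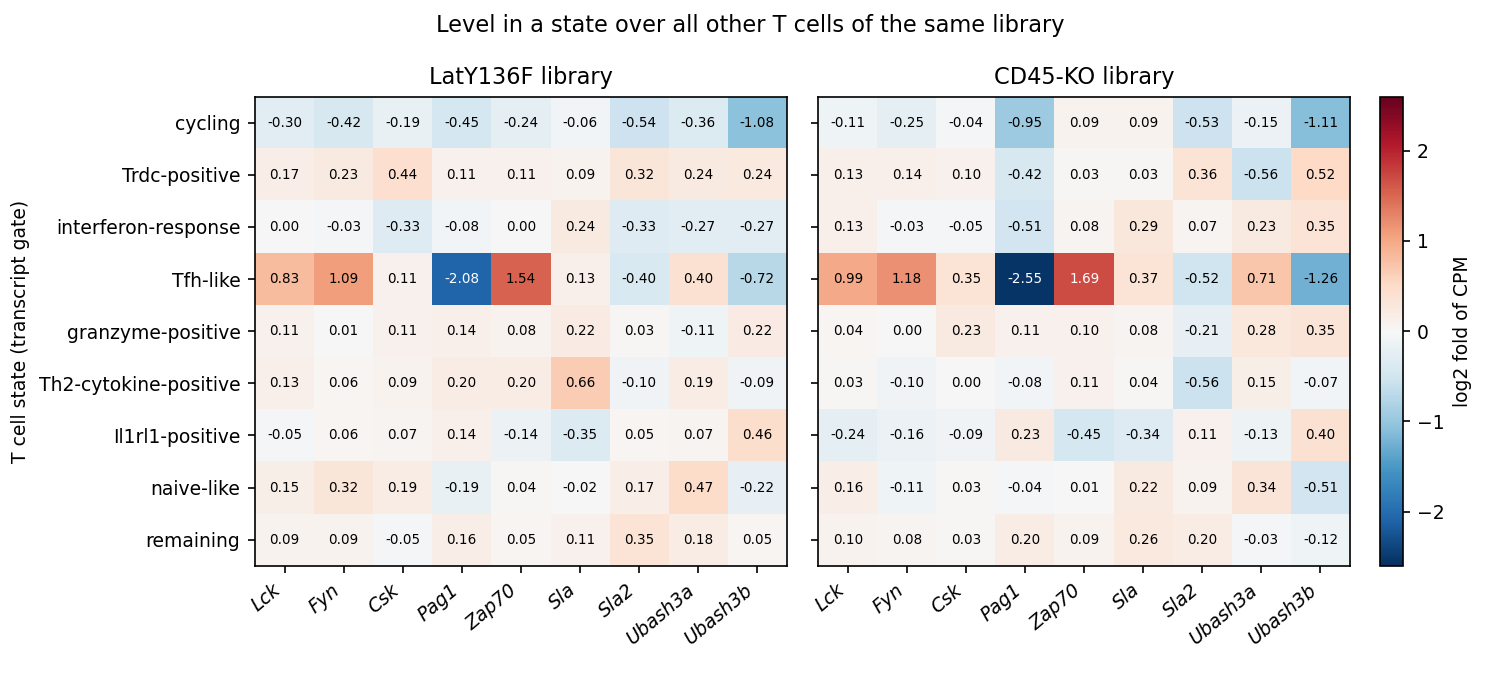
Log2 fold of CPM of a state over all other T cells of the same library, for 9 members (columns) and the 9 states with at least 50 cells in both libraries (rows). Red is higher and blue lower in the state; the Tfh-like row has the highest values for Lck, Fyn and Zap70 and the lowest for Pag1 in both libraries.

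Tfh-like cells had a median of 3278 and 3254.5 UMIs per cell, against 2154 and 1987.5 over all T cells. Only cycling cells were deeper. With each cell thinned to 1000 UMIs, Zap70 was detected in 41.3% (33.0% to 49.99%) and 40.6% (34.1% to 47.4%) of Tfh-like cells against 18.1% and 15.1% of other T cells, and Pag1 in 2.17% and 2.68% against 11.8% and 12.5%. Myeloid markers summed to 36.2 and 27.8 CPM in Tfh-like cells against 8.02 and 11.7 CPM in other T cells, with 5 of 10 markers detected in each library and Itgam, Clec9a and Adgre1 at 0 in both. B-lineage markers summed to 20.1 and 3.79 CPM against 1.85 and 3.05 CPM, with 2 and 1 of 8 detected and Cd79a and Ms4a1 at 0, and NK markers to 40.3 and 56.8 CPM against 109.9 and 50.2 CPM. In cells without a UMI of the myeloid or B-lineage markers (cells with NK markers were kept) the log2 folds were 0.82 and 1.01 for Lck, 1.504 and 1.72 for Zap70 and -1.88 and -2.65 for Pag1. When cells that also met an earlier gate (cycling, Trdc-positive, Foxp3-positive or interferon-response) counted as Tfh-like (216 and 282 cells), the folds were 0.53 and 0.85 for Lck, so that the LatY136F value no longer reached 1.5-fold, 0.72 and 1.01 for Fyn and 1.24 and 1.52 for Zap70.

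The levels also differed by the number of follicular helper markers detected in a thinned cell, a split chosen after the data had been seen. In cells with 0, 1, 2 and 3 or more markers, Lck stood at 678, 773, 1145 and 1261 CPM in LatY136F and at 593, 808, 1135 and 1195 CPM in CD45-KO cells. Pag1 stood at 135 and 106 CPM in LatY136F cells with 0 and 1 markers and had no UMI in the 69 and 46 cells with more (upper 95% Poisson limits of 53.5 and 80.2 CPM), and in CD45-KO cells it stood at 141, 94.9, 41.7 and 13.0 CPM, the last on 1 UMI. Zap70 stood at 204, 250.5, 536 and 674 CPM in LatY136F and at 169, 295, 583 and 364 CPM in CD45-KO cells, where the last step was not the highest. With each of the 6 markers taken alone, in all T cells and without thinning, Pag1 was lower in cells with the marker in both libraries. Its log2 fold ran from -0.59 for Tox2 in LatY136F to -3.46 for Il21 in CD45-KO cells, the latter on 10 UMIs. Zap70 was higher in cells with the marker, from 0.60 to 1.47. Cycling cells were kept in these single-marker splits and depth was not matched, so the part of either was not tested.

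**Figure D5:**
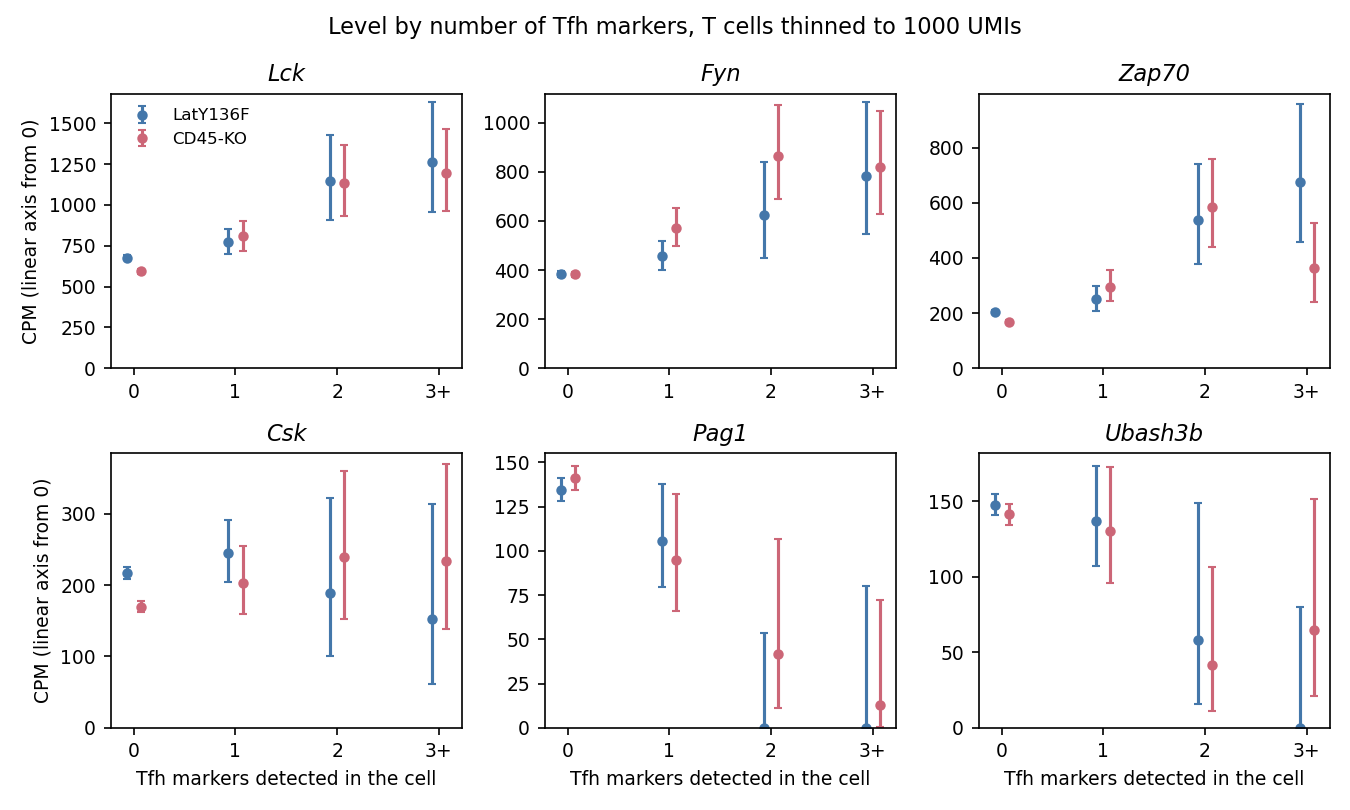
CPM of 6 members in T cells thinned to 1000 UMIs, by the number of follicular helper markers detected in the cell, for the LatY136F (blue) and CD45-KO (red) library, with 95% Poisson intervals. With 2 or more markers the points of Lck and Fyn lie above, and those of Pag1 and Ubash3b below, the points with 0 markers, and the Csk intervals overlap across the steps.

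Among the T cell states of the LatY136F library, Sla had its highest level in cells with type 2 cytokine transcripts, and in the CD45-KO library these cells were near the other T cells. T cells with a UMI of Il4, Il5 or Il13 that met no earlier gate numbered 469 in the LatY136F and 462 in the CD45-KO library. Their Sla level was 506 CPM against 321 CPM in other T cells of the LatY136F library, a log2 fold of 0.66 (0.54 to 0.77), and 255 against 248 CPM in the CD45-KO library, 0.04 (-0.14 to 0.21). The first value was under 1.5-fold when gates could overlap (0.52) or cells were weighted equally (0.58). Between the libraries the Sla ratio in these cells was -0.99 (-1.20 to -0.78), and it ran from -1.07 to -0.73 over 7 other settings. Sla2 was also lower, with 64.4 and 38.4 CPM (-0.75, -1.33 to -0.18; 78 and 41 UMIs).

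Sla was detected in 246 of the 469 LatY136F and 174 of the 462 CD45-KO cytokine-positive cells, and some cells held many UMIs. The 10 cells with most Sla UMIs held 20.2% of the 613 Sla UMIs in LatY136F and 17.6% of the 272 in CD45-KO cytokine-positive cells, and 26 of 469 against 5 of 462 cells held 5 or more. After thinning, 30.4% (26.2% to 34.8%) and 21.5% (17.8% to 25.6%) of these cells had a Sla UMI, against 24.3% and 19.9% of all T cells. Sla also differed with depth outside cycling cells, from 270.4 CPM in the shallowest to 406 CPM in the deepest quartile of LatY136F T cells and from 229 to 264 CPM in CD45-KO T cells, and the part of depth in the result was not tested. Of the 9 members, 0 were higher and 2 lower by 1.5-fold between the libraries in cytokine-positive cells, against 6.45% of 6430 genes higher and 6.70% lower, and their median ratio was -0.25 against 0.01 over all genes. In all T cells with an Il4 UMI, a split chosen after the data had been seen, Sla stood at 447 against 316 CPM in LatY136F and at 274 against 246 CPM in CD45-KO cells. The same split by Il6 gave 386 against 322 and 281 against 247 CPM. By Il2 the order of the libraries was the other way, with log2 folds of 0.18 (0.02 to 0.33) in LatY136F and 0.53 (0.31 to 0.74) in CD45-KO cells.

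Cycling cells, 1330 in the LatY136F and 427 in the CD45-KO library, had lower levels of several members, with Ubash3b the furthest below other T cells. Ubash3b stood at 69.9 against 147 CPM in other T cells of the LatY136F library (-1.08, -1.21 to -0.94) and at 64.6 against 139.7 CPM in the CD45-KO library (-1.11, -1.36 to -0.88). Pag1 stood at 97.7 against 134 CPM (-0.45) and at 73.9 against 142 CPM (-0.95). Sla2 (-0.54 and -0.53), Fyn (-0.42 and -0.25) and Lck (-0.30 and -0.11) were also lower, with intervals below 0 in both libraries. For Csk and Ubash3a the interval was below 0 in LatY136F only, and for Zap70 and Sla the sign differed between the libraries. Cycling cells were the deepest state, with medians of 4453 and 4546 UMIs, and among cells with 2000 to 5000 UMIs the folds were -0.53 and -0.69 for Ubash3b and -0.14 and -0.45 for Pag1. Of 9 members, 0 and 0 were higher and 1 and 2 lower by 1.5-fold in the LatY136F and the CD45-KO library, while 9.61% and 10.2% of all genes were higher and 12.8% and 14.6% lower. The members' median log2 fold was -0.36 and -0.15, against -0.11 and -0.10 over all genes.

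The levels in cells that should lack a gene set the background. Lck was detected in 10.5% of 19 and 11.6% of 69 myeloid-like cells thinned to 1000 UMIs, against 47.9% and 44.1% of T cells (73.8% and 66.4% without thinning), at median depths of 3897 and 5634 UMIs for the myeloid-like and 2186 and 2009 for the T cells. Zap70 was detected in 0 of 28 CD45-KO B-lineage-like cells, which at 3 counts allows a share of up to 10.7% of cells with a UMI, against 15.6% of T cells. Sla was not restricted to T cells: it was detected in 31.6% and 34.8% of myeloid-like cells, and per 100 UMIs of the receptor genes Trac, Trbc1 and Trbc2 it reached 38.4 and 49.9 UMIs there, against 5.66 and 5.80 in T cells. For Pag1 these cells set no clear zero: 0 of 19 LatY136F and 4 of 69 (5.80%) CD45-KO myeloid-like cells had a UMI after thinning, beside 2.17% and 2.68% of Tfh-like cells. Per 100 receptor UMIs, Pag1 in CD45-KO myeloid-like cells reached 5.37 (3.15 to 8.62) against 3.20 in T cells. In LatY136F myeloid-like cells it was lower than in T cells, 0.80 (0.02 to 4.54) on 1 UMI against 2.18. The part of free RNA in the Pag1 counts of Tfh-like cells was not tested.

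Around the members, 45 of 48 other genes of proximal receptor signalling had enough UMIs for a ratio over T cells. Of these, 1 was higher and 3 lower by 1.5-fold, with a median log2 ratio of -0.01, beside 6.12% higher and 7.25% lower over all genes, so the count is near the background. The adaptor Trat1 stood at 1009 and 525 CPM (-0.94), the adaptor Dok2, an inhibitor of Ras signalling, at 379.5 and 219 CPM (-0.80), the receptor phosphatase Ptprj (CD148), which like CD45 can act on Src family kinases, at 15.6 and 8.04 CPM (-0.96), and the Src family kinase Yes1 at 3.70 and 5.55 CPM (0.59, 0.24 to 0.93). Ptprc stood at 1759.8 and 1180.4 CPM (-0.58, -0.60 to -0.56), just inside 1.5-fold, and since the targeted part of the gene is not given this does not check the genotype. The kinase Txk was at 4.33 and 5.76 CPM (0.41), and the phosphatase Ptpn22, a partner of Csk, was at 182 and 215 CPM (0.24). Ptpn6 (SHP-1) was at -0.10 and the ubiquitin ligase gene Cblb at 0.09.

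Genes with a similar pattern over the 18 points of state and library were read as a description, since points share libraries and depth. Among 3426 genes with at least 50 CPM, the closest to Lck were Gng2, a G protein subunit gene (r = 0.97), and Lbh (0.97), those to Fyn were Gng2 (0.95) and Btbd19 (0.94), and those to Zap70 were Gng2 (0.97) and Sptlc1 (0.96). Pag1 was closest to Golm1 and Add3 (both 0.98). These values leaned on the Tfh-like points to different degrees. Without those points r with Gng2 was 0.85 for Lck, 0.60 for Fyn and 0.70 for Zap70. It was 0.85 for Lck with Lbh, 0.70 for Fyn with Btbd19 and 0.69 for Zap70 with Sptlc1. For Pag1 it was 0.87 with Golm1 and 0.85 with Add3, while r between Pag1 and Zap70 went from -0.88 to 0.13. Csk was closest to Aspscr1 (0.88) and R3hdm4 (0.85), Sla to Ptprcap, which encodes a CD45-associated protein (0.82), and Ucp2 (0.78), and Sla2 to Gigyf1 (0.86) and Aes (0.84). Ubash3a was closest to the histone demethylase gene Kdm6b and to Chd9 (both 0.84), and Ubash3b to the immediate early genes Junb (0.93) and Zfp36 (0.89).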

How the data were processed

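UMI counts per cell and gene were deposited by the authors as 1 table per library, made with the BD WTA Rhapsody pipeline version 1.9.1 on GRCm38 and GENCODE M19, per the file headers. The design text names pipeline version 2.0, and the submitters' processing notes name GRCm39; the file headers were followed. Gene locations come from GENCODE M21 (GRCm38). The values are counts with no further normalization; a gene missing from 1 file was set to 0.

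Cells needed 200 genes or more and no more than 25% mitochondrial UMIs, and T cells and states were gated on marker transcripts. No doublet caller was run. Counts were summed per library or state and given as CPM with exact Poisson 95% intervals, ratios with exact conditional binomial intervals and shares with Clopper-Pearson intervals (python 3.11.15, numpy 2.4.6, scipy 1.17.1). Intervals cover counting error only, and their computation was tested on simulated data. A difference was called at 1.5-fold with at least 50 UMIs over both libraries, or at least 20 CPM for states. Total depth was 35300371 and 29268453 UMIs.

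All 10 members are named; of the other signalling genes, those past 1.5-fold, the 4 largest ratios with at least 20 CPM and close relatives of members; and for each member the 2 most similar genes. Some results under this rule are not reported here. The members, lists and gates were chosen with earlier results of these data known, so patterns already seen in these libraries are no independent support.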

Additional observations from a re-analysis of the deposited data

Results flagged for a closer look

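For 3 members the CD45-KO over LatY136F log2 ratio lay above 0 in some T cell states and below 0 in others, each with a counting interval on 1 side of 0; the difference between states was not tested. Fyn was at 0.21 in cycling and 0.08 in remaining T cells, but at -0.33 in naive-like T cells. Pag1 was at 0.13 in Il1rl1-positive and 0.14 in remaining T cells, but at -0.40 in cycling T cells, the deepest state. Ubash3b was at 0.63 in interferon-response T cells, on 54 and 58 UMIs, and at -0.09 in Il1rl1-positive T cells.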

How the results depend on the processing

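No paired analysis was possible because each genotype has 1 library and the labels give no replicate numbers. Among the members with at least 50 UMIs, the library ratio kept its sign in 10 of 10 alternatives for each except Ubash3b (6 of 10). With all filtered cells in place of T cells, Syk passed 1.5-fold, its UMIs then coming mostly from the other lineages. So did 7 other signalling genes, a count not read further because the share of all genes at this setting is not given here. At the lower fold threshold tried, 2 members, 12 other signalling genes and 3557 of all genes passed. With overlapping gates the Tfh-like log2 folds were 0.53 (LatY136F) and 0.85 (CD45-KO) for Lck, 0.72 and 1.01 for Fyn and 1.24 and 1.52 for Zap70, the Sla fold in Th2-cytokine-positive LatY136F cells was 0.52 and the Sla ratio between libraries in these cells was -0.73. With gates set on thinned cells, cycling folds were -1.33 for Pag1 in CD45-KO and -1.73 and -1.97 for Ubash3b in LatY136F and CD45-KO cells, and the Sla folds in Th2-cytokine-positive cells were 0.83 and 0.31. With cells weighted equally, cycling folds were -0.55 for Pag1 in CD45-KO and -0.73 and -0.78 for Ubash3b. Among cells with 2000 to 5000 UMIs, an alternative chosen after seeing the data, they were -0.14 and -0.45 for Pag1 and -0.53 and -0.69 for Ubash3b. Without cells holding an immunoglobulin UMI, also chosen later, Pag1 in CD45-KO cycling cells was at -0.34. The causes were not tested. Leaving out Tfh-like cells and cells with a B-lineage or myeloid marker in the state folds were likewise added later. All state folds tried under these alternatives kept their sign in 7 of 7 except Sla in CD45-KO Th2-cytokine-positive cells (6 of 7). Depth limits Syk, Pag1 in Tfh-like cells and the small states.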
